A study of Sus scrofa with 63 samples.

Results

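The genes described here encode the enzymes that break down leucine, isoleucine and valine, the branched-chain amino acids. The members were BCAT1, BCAT2, BCKDHA, BCKDHB, BCKDK, DBT, IVD, MCCC1, MCCC2 and HIBADH, and every array probe whose gene name in the scanner files equals one of these symbols was taken. This gave 20 of the 60305 probes of the array, for 8 of the 10 genes among 45222 gene names, and no probe was named BCKDK or MCCC2. Of these, 19 probes of 7 genes gave enough signal to be tested, among 40515 probes tested in all. The single BCAT1 probe, for the cytosolic transaminase, was well above background on 12 of 63 arrays and was not tested.

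Branched-chain amino acids are first stripped of their amino group by a transaminase, which is BCAT2 in mitochondria. The keto acids formed are then oxidised by the branched-chain keto acid dehydrogenase complex, the committed step of the pathway. BCKDHA and BCKDHB are the alpha and beta subunits of its decarboxylase, and DBT is the transacylase that forms its core. The kinase BCKDK shuts the complex off by phosphorylating BCKDHA, and the phosphatase PPM1K reverses this. Past the complex the 3 amino acids part ways. IVD, isovaleryl-CoA dehydrogenase, and methylcrotonyl-CoA carboxylase, built from MCCC1 and MCCC2, act on leucine, while HIBADH, 3-hydroxyisobutyrate dehydrogenase, acts on valine. The small intestine uses part of the branched-chain amino acids that it takes up, in the pig as in other mammals.

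The samples were pieces of the middle jejunum of 63 male pig fetuses, 1 fetus on each one-colour array, taken at day 90 or day 110 of gestation. LW fetuses had Large White parents and MS fetuses had Meishan parents, a Chinese breed whose piglets are known for good survival after birth. LWMS fetuses had a Large White sire and a Meishan sow, and MSLW fetuses a Meishan sire and a Large White sow. There were 9 LW fetuses at each day, 9 LWMS fetuses at each day, 6 MS fetuses at day 90 and 7 at day 110, and 8 MSLW fetuses at day 90 and 6 at day 110. All sows, 9 of each breed in the study, had been inseminated with mixed semen of both breeds, so a litter held purebred and crossbred fetuses. Which fetuses shared a sow was not used here. Litter mates therefore count as independent fetuses, which can make p-values too small. The breed of the sow stands for the mother's genes and her womb together, which cannot be told apart.

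Between 51.2 and 87.6% of probes were well above background on an array, no spot was saturated, and the correlation between arrays ran from 0.862 to 0.9914. Of 12 epithelial markers listed, 8 had a tested probe, and these were present in all groups, as were smooth muscle and stromal markers, so the samples hold the gut wall and not the epithelium alone. The mean log2 level over 8 epithelial probes lay between 3.30 and 4.16 in every day 90 fetus and between 2.13 and 5.39 at day 110. From day 90 to day 110, 6 of the 8 epithelial genes rose and none fell, with FABP1 up by 2.55, ALPI by 2.47 and LCT by 1.37 on the log2 scale. Of 6 stromal genes 4 fell, and of 6 smooth muscle genes 2 fell. At day 110 MS fetus 632 and LW fetuses 575, 559, 572 and 557 had an epithelial level under 4.1, and their smooth muscle level was 4.73 to 5.12 against group means of 4.07 to 4.47. Where leaving out these 5 fetuses changed a call given below for a probe, the value without them stands beside it. In whole tissue, fewer cells of a type and less RNA per cell cannot be told apart.

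Some of the BCKDHB, BCKDHA and IVD probes are printed here 5′ to 3′ as the scanner files give them, and other probes used below are not. Among the 5 probes named BCKDHB, A_72_P693282 and A_72_P635404 share a run of 55 bases, set in capitals, so that they read nearly the same stretch of transcript, while A_72_P676234 and A_72_P441239 read others.
A_72_P693282: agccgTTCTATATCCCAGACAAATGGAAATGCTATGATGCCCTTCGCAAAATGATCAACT
A_72_P635404: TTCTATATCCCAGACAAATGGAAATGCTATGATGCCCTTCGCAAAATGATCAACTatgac
A_72_P676234: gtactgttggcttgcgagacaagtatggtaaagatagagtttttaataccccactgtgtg
A_72_P441239: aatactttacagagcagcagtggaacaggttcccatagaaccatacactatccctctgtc

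For BCKDHA the probes A_72_P571909 and A_72_P087911 hold the same 60 bases and are repeat measurements of 1 sequence, and A_72_P441234 reads another part of the gene. The IVD probe A_72_P713413 is the only 1 of the 3 IVD probes that the file pairs with a RefSeq transcript. For the others, A_72_P796509 and A_72_P715033, it names no RefSeq transcript.
A_72_P571909: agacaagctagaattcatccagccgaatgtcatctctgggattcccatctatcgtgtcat
A_72_P087911: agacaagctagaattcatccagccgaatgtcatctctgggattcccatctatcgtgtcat
A_72_P441234: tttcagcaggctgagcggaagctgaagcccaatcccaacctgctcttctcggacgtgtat
A_72_P713413: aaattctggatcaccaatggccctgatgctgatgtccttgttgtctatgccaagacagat

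Levels are given as log2 of the background-corrected signal minus the array's own 75th percentile, so that a value of 0 is the signal at that percentile. Each gene was represented by the brightest of its tested probes, and levels of different probes are not compared. A difference somewhere among the 8 group means was called for BCKDHB, DBT, IVD and HIBADH, by limma's F test at an adjusted p under 0.01. This makes 4 of 7 genes. Among all probes tested, 28.7% were called in this way. Without the 5 fetuses of low epithelial level HIBADH was not called (adjusted p = 0.0219), which left 3 of 7.

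**Figure D1:**
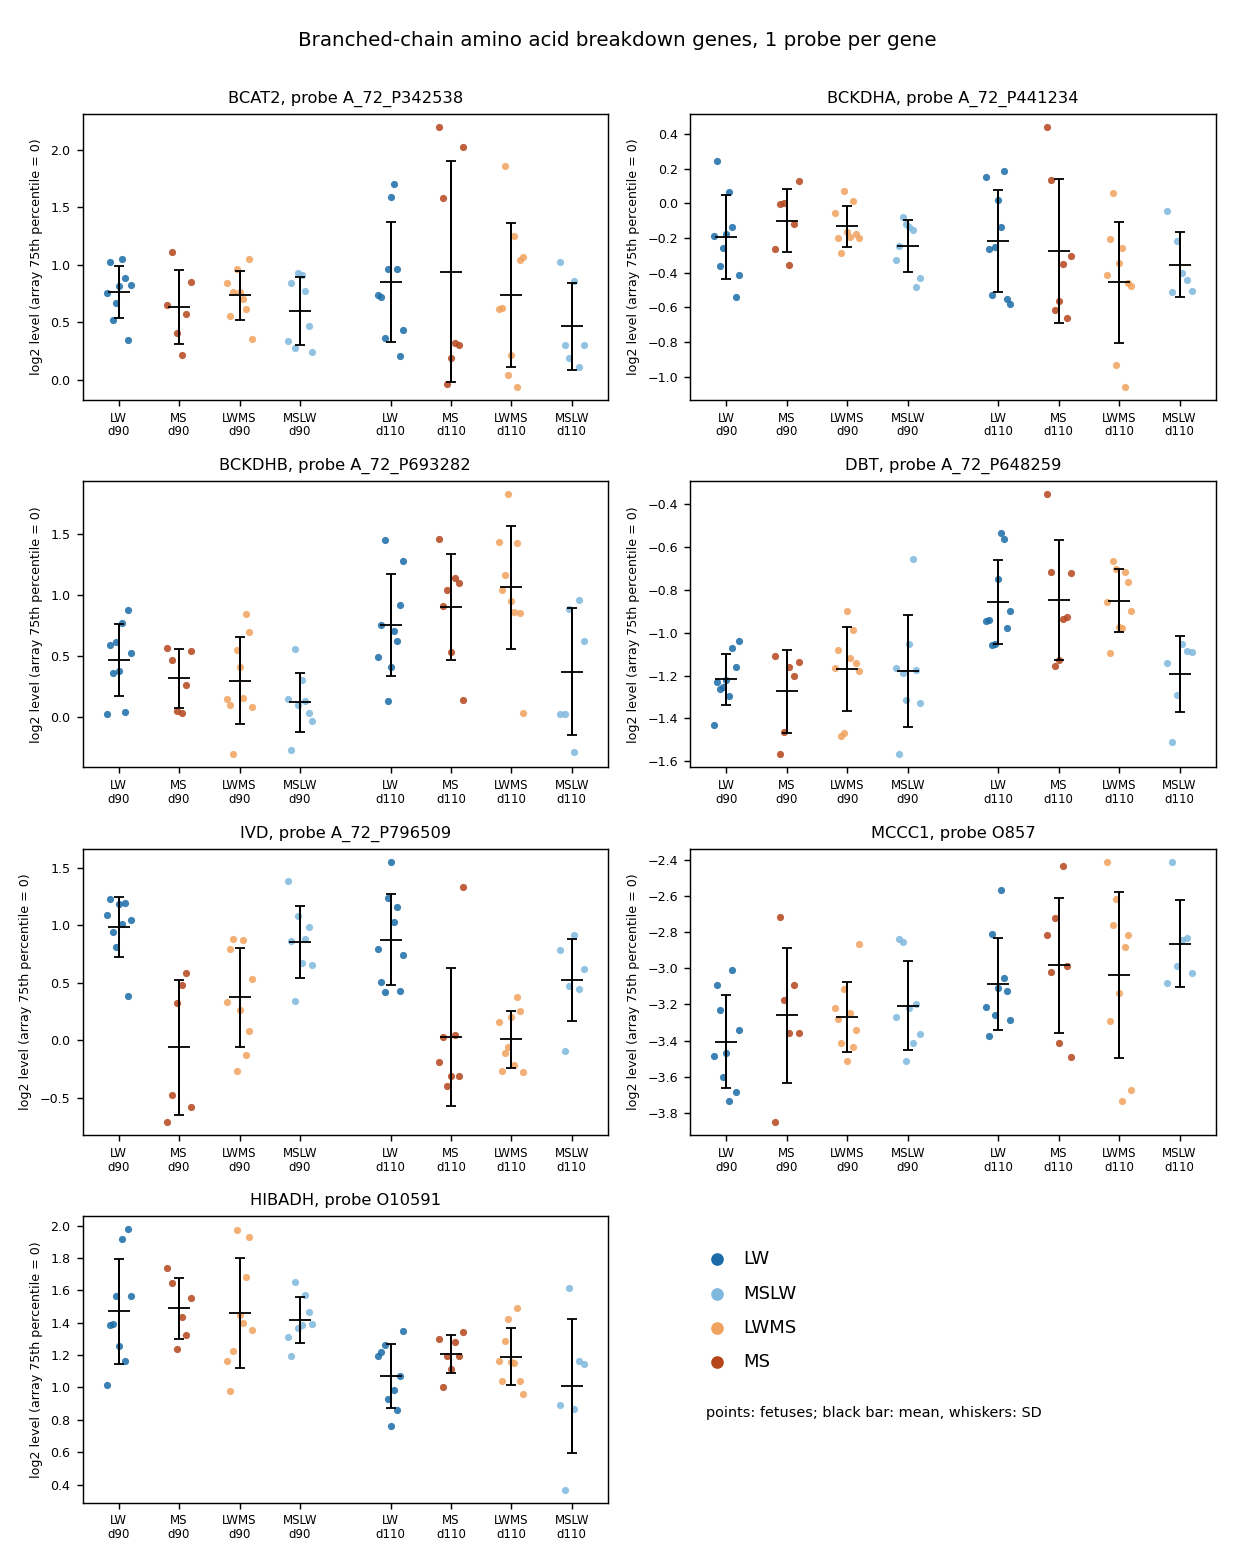
Log2 level of the brightest tested probe of each of the 7 genes (y axis, array 75th percentile set to 0) in the 8 groups (x axis, genotype and day of gestation). Points are fetuses, bars are means and whiskers are SD. The mean of BCKDHB lies higher at day 110 in each genotype, and that of DBT in all but MSLW, where it is -1.18 at day 90 and -1.20 at day 110. HIBADH lies lower at day 110 in each genotype, and IVD lies lower in MS and LWMS than in LW and MSLW.

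Gestational age moved several of these genes, and not in 1 direction. Between day 90 and day 110, averaged over the 4 genotypes, BCKDHB, DBT and MCCC1 rose and HIBADH fell, which is 4 of 7 genes (57.1%) at an adjusted p under 0.05 in limma. In the same comparison 39.4% of all probes were called, 17.5% higher and 22% lower. The median change of the 7 genes was 0.07 on the log2 scale, against -0.02 for all probes. BCAT2, BCKDHA and IVD did not pass the test with their brightest probe.

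**Figure D2:**
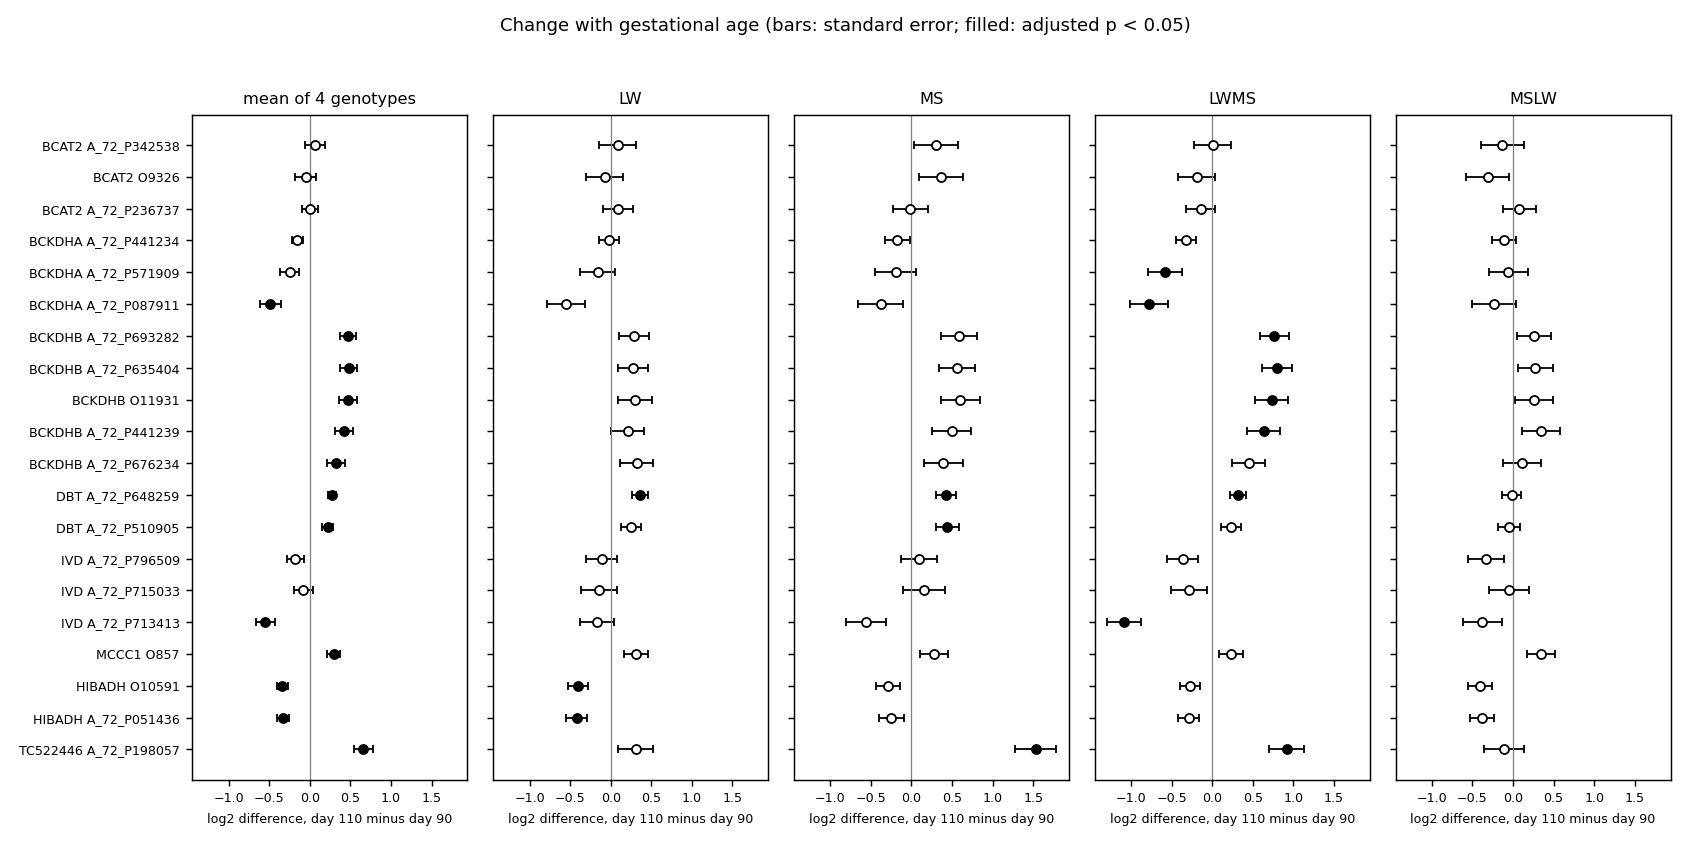
Log2 difference, day 110 minus day 90 (x axis), for each member probe and for probe A_72_P198057 of gene name TC522446 (y axis), as the mean of the 4 genotypes and within each. Bars are standard errors and filled points have an adjusted p under 0.05. All 5 BCKDHB probes lie to the right of 0 in every panel, and in the MSLW panel no point is filled.

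BCKDHB, the beta subunit of the decarboxylase, had levels at day 90 of 0.03, 0.53 and 0.88 in LW as lowest, median and highest. The corresponding values were 0.03, 0.36 and 0.56 in MS, -0.31, 0.16 and 0.84 in LWMS, and -0.27, 0.11 and 0.56 in MSLW. At day 110 they were 0.13, 0.71 and 1.45 in LW, 0.14, 1.04 and 1.46 in MS, 0.03, 1.04 and 1.83 in LWMS, and -0.28, 0.33 and 0.96 in MSLW. The highest fetus of each genotype lay higher at day 110 than at day 90, but the ranges of the 2 days overlapped in all 4 genotypes. The rise averaged 0.47 ± 0.10 (SE), or 1.39-fold, with an adjusted p of 0.000102 in limma, and day 110 fetuses were higher on 8 of 8 slides. The 4 other BCKDHB probes rose as well, by 0.32 to 0.48, with adjusted p between 0.000127 and 0.0178. These 5 probes correlated at 0.84 to 0.972 over the 63 arrays.

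Within genotypes BCKDHB passed the test in LWMS alone, where it rose by 0.77 ± 0.18 (1.70-fold, adjusted p = 0.00156 in limma). The change was 0.59 in MS (adjusted p = 0.0867), 0.29 in LW (0.364) and 0.25 in MSLW (0.49). Without the 5 fetuses of low epithelial level the MS change was 0.71, with an adjusted p of 0.0249. A difference in the age change between LWMS and MSLW, or between MS and LW, was called for none of the 7 genes by limma, and at an unadjusted p under 0.05 there were 1 (DBT) and 0 of them. Only 0.00494% and 0.0395% of all probes were called in these comparisons, and at an unadjusted p under 0.05 the numbers were 2211 and 2680 of 40515 probes.

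DBT, the core of the complex, rose by a smaller amount and with less spread. Its levels at day 90 had a lowest, median and highest of -1.43, -1.23 and -1.04 in LW, -1.57, -1.18 and -1.11 in MS, -1.48, -1.14 and -0.90 in LWMS, and -1.57, -1.18 and -0.66 in MSLW. At day 110 they were -1.06, -0.94 and -0.54 in LW, -1.15, -0.93 and -0.35 in MS, -1.10, -0.86 and -0.67 in LWMS, and -1.51, -1.12 and -1.05 in MSLW. In LW the ranges of the 2 days met only between -1.06 and -1.04, whereas in MSLW the day 110 range lay inside the day 90 range.

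Averaged over genotypes the rise of DBT was 0.27 ± 0.05 (1.21-fold, adjusted p = 4.93e-05 in limma), and it was seen on 8 of 8 slides. The second DBT probe rose by 0.22 (adjusted p = 0.00619). The brighter probe passed the test in LW (0.36 ± 0.10, adjusted p = 0.0123), MS (0.42 ± 0.12, adjusted p = 0.0168) and LWMS (0.32 ± 0.10, adjusted p = 0.0178), while in MSLW the difference was -0.02 ± 0.12 (adjusted p = 0.954). The shares of all probes called were 10.9% in LW, 7.3% in MS, 19.6% in LWMS and 11.8% in MSLW. In MSLW 0 of the 7 genes were called by limma, and 2 had an unadjusted p under 0.05, while under 7 alternatives 1 gene, HIBADH, was called there. The LW call was lost without the 4 LW fetuses of low epithelial level, at 0.25 and an adjusted p of 0.144. The MS call was lost when fetus 623 at day 110 (0.34, adjusted p = 0.0623) or fetus 532 at day 90 (0.37, adjusted p = 0.0635) was left out. LWMS exceeded MSLW in the change of DBT by 0.33 ± 0.15, with an unadjusted p of 0.0329 in limma and an adjusted p of 0.867.

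MCCC1, the biotin-carrying subunit of methylcrotonyl-CoA carboxylase, was dim and well above background on 60 of 63 arrays. Its lowest, median and highest levels were -3.85, -3.31 and -2.72 at day 90, and -3.73, -3.02 and -2.41 at day 110, so that the days overlapped over most of their range. The rise was 0.29 ± 0.08 (1.23-fold, adjusted p = 0.00251 in limma). The changes in the 4 genotypes lay between 0.24 and 0.34, and none of them passed the test on its own.

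HIBADH of the valine branch went the other way. Its lowest, median and highest levels at day 90 were 1.01, 1.39 and 1.98 in LW, 1.24, 1.49 and 1.74 in MS, 0.98, 1.40 and 1.97 in LWMS, and 1.20, 1.39 and 1.65 in MSLW. At day 110 they were 0.76, 1.07 and 1.35 in LW, 1.001, 1.20 and 1.34 in MS, 0.96, 1.16 and 1.49 in LWMS, and 0.37, 1.02 and 1.62 in MSLW. The median was lower at day 110 in each genotype, and the ranges overlapped. HIBADH fell by 0.34 ± 0.07 on the log2 scale, to 0.79-fold (adjusted p = 4.11e-05 in limma), and was lower at day 110 on 8 of 8 slides. Its second probe, which holds the same bases, fell by 0.33 (adjusted p = 0.000107).

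Within genotypes the fall of HIBADH passed the test in LW alone, at -0.40 ± 0.12 with an adjusted p of 0.0263 in limma. It did not pass when any of the LW fetuses 559, 462, 572 or 484 was left out, nor without the 4 LW fetuses of low epithelial level (-0.25, adjusted p = 0.285). In MSLW the change was of like size, -0.41 with an adjusted p of 0.0501, close to the threshold. Among the 7 alternatives that called it there, the adjusted p ran from 0.00925 under quantile normalization to 0.0474, and without the 5 fetuses of low epithelial level it was 0.043. A comparison of the age change between genotypes was not called for this gene.

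At the entry of the pathway BCAT2, the mitochondrial transaminase, showed no difference that passed a test. Group means of its brightest probe lay between 0.47 and 0.94, the age difference was 0.07 with an adjusted p of 0.712, and limma's F test over the groups gave an adjusted p of 0.778. The spread between fetuses was wide at day 110, reaching an SD of 0.96 in MS, where single fetuses ran from -0.04 to 2.20. A second BCAT2 probe correlated with it at 0.916 over 63 arrays, while the third correlated with them at 0.0757 and 0.0882, so that 1 of the 3 probes named BCAT2 did not follow the others.

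BCKDHA, the alpha subunit that carries the phosphorylation site, gave different calls with different probes. The brightest probe, A_72_P441234, differed by -0.16 between days (adjusted p = 0.0663 in limma) and by -0.32 in LWMS (0.0649). Of the repeat probes printed above, A_72_P087911 fell by 0.49 ± 0.13 (adjusted p = 0.0016) and A_72_P571909 differed by -0.25 (adjusted p = 0.0777), though their sequences are identical. Both fell in LWMS, by 0.78 (adjusted p = 0.0125) and 0.59 (adjusted p = 0.0414), and 9 of 63 fits with 1 fetus left out lost the latter call. The 2 repeats correlated at 0.782 and were well above background on 59 and 60 of 63 arrays, which gives the spread between repeat measurements of 1 dim sequence. Without the 5 fetuses of low epithelial level the brightest probe fell by 0.19 (adjusted p = 0.0306). All 3 BCKDHA probes thus had negative age differences where the BCKDHB probes rose.

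IVD, the first enzyme of the leucine branch, separated the fetuses by the breed of the sow. Its brightest probe, A_72_P796509, had a lowest, median and highest level at day 90 of 0.39, 1.04 and 1.23 in LW, 0.35, 0.87 and 1.39 in MSLW, -0.27, 0.33 and 0.88 in LWMS, and -0.71, -0.08 and 0.59 in MS. At day 110 these were 0.42, 0.80 and 1.56 in LW, -0.09, 0.55 and 0.92 in MSLW, -0.28, -0.06 and 0.37 in LWMS, and -0.40, -0.19 and 1.34 in MS. At day 110 every LWMS fetus lay under every LW fetus, and so did every MS fetus but 632. Over both days the 31 fetuses of MS sows had a median of 0.04 and the 32 fetuses of LW sows a median of 0.87, with ranges from -0.71 to 1.34 and from -0.09 to 1.56 that overlapped.

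**Figure D3:**
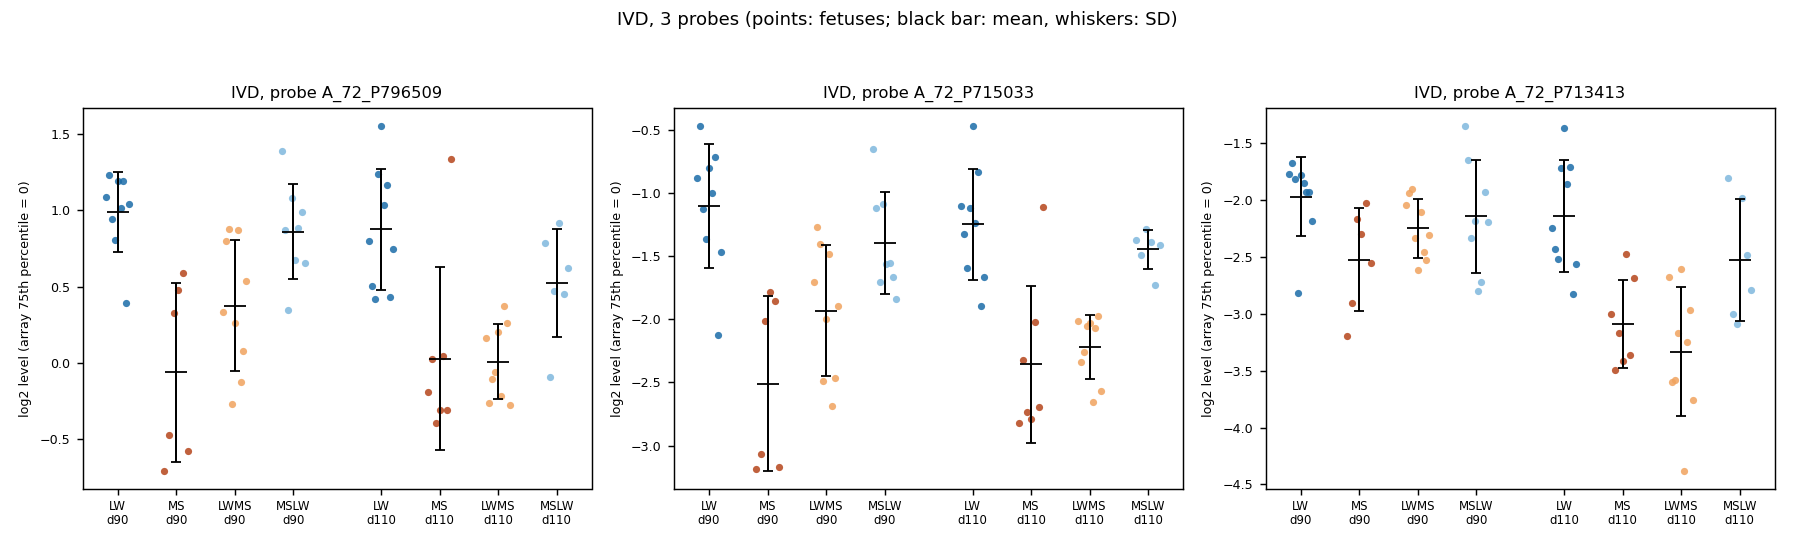
Log2 level of the 3 IVD probes (y axis, array 75th percentile set to 0) in the 8 groups (x axis, genotype and day of gestation). Points are fetuses, bars are means and whiskers are SD. For all 3 probes the means of MS and LWMS lie under those of LW and MSLW on both days, and MS fetus 632 at day 110 stands at 1.34 on A_72_P796509, above the rest of its group.

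IVD was lower in fetuses of MS sows by 0.73 ± 0.10 on the log2 scale, at 0.605-fold of the level in fetuses of LW sows (adjusted p = 3.33e-07 in limma). It was 1 of 7 genes called for the sow's breed, where 16% of all probes were called (7.26% higher and 8.71% lower), and the only member gene called. The difference held on 8 of 8 slides, where it ran from -1.12 to -0.31. It was -0.77 at day 90 (adjusted p = 0.000209) and -0.68 at day 110 (adjusted p = 0.00109), comparisons in which 5.65% and 9.97% of all probes were called. Probe A_72_P715033 was lower by 0.95 ± 0.12, at 0.516-fold (adjusted p = 1.16e-08), and A_72_P713413 by 0.60 ± 0.11, at 0.658-fold (adjusted p = 9.1e-05). Left out in turn, no single fetus removed the sow call of the brightest probe. Whole litters could not be left out, because the labels used here do not give the sow.

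Between the pure breeds IVD was lower in MS than in LW by 1.05 ± 0.21 at day 90, or 0.483-fold (adjusted p = 0.000446 in limma), and by 0.85 ± 0.20 at day 110, or 0.555-fold (adjusted p = 0.00291). By brightest probes it was the only gene of the 7 called in these comparisons, in which 6.58% and 10.2% of all probes were called. Without fetus 632 the day 110 difference was -1.07. Without all 5 fetuses of low epithelial level it was -0.77 (adjusted p = 0.0159), and the sow difference was -0.71 (adjusted p = 7.92e-08), so both were called also in the other fetuses.

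The breed of the sire was not called for IVD on its brightest probe, at -0.22 ± 0.10 (95% confidence interval -0.43 to -0.02) and an adjusted p of 0.213 in limma. No gene of the 7 was called for the sire with its brightest probe, and 2 had an unadjusted p under 0.05, while 6.95% of all probes were called. The sow and sire differences compared with each other, which is LWMS minus MSLW over both days, gave -0.50 with an adjusted p of 0.0536 on A_72_P796509, and -0.65 ± 0.17 with an adjusted p of 0.0263 on A_72_P715033. In this comparison 1.62% of all probes were called. On A_72_P715033 the sire difference was -0.30 (adjusted p = 0.122), and it was called without fetus 632 at an adjusted p of 0.0381. That the sire has no part in the level of IVD is therefore not shown.

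The 3 IVD probes did not move alike with age. A_72_P713413 fell from day 90 to day 110 by 0.55 ± 0.11 (0.684-fold, adjusted p = 8.54e-05 in limma) and in LWMS by 1.08 ± 0.21 (0.472-fold, adjusted p = 0.000102). In LWMS its levels ran from -2.62 to -1.91 at day 90 and from -4.39 to -2.61 at day 110, and the ranges barely touched. A_72_P796509 differed by -0.18 (adjusted p = 0.163) and was called only without the 5 fetuses of low epithelial level, at -0.31 (adjusted p = 0.00505). For A_72_P713413 the sow difference was -0.33 (adjusted p = 0.249) at day 90 and -0.88 at day 110 (0.544-fold, adjusted p = 0.000137), but the change in the difference, -0.55, was not called (adjusted p = 0.324). No member gene was called in that interaction by its brightest probe, where 0.388% of all probes were, and 1 had an unadjusted p under 0.05. Over 63 arrays A_72_P796509 and A_72_P715033 correlated at 0.935, and A_72_P713413 correlated with them at 0.755 and 0.705.

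IVD also moved with the marker levels. Over the 63 arrays its brightest probe correlated with the epithelial marker level at -0.492, and at -0.584 once the group means were taken out, with the smooth muscle level at 0.435 and with the stromal level at 0.571. The 4 LW fetuses of low epithelial level at day 110 had IVD levels of 1.03 to 1.56 and the other 5 LW fetuses of that day 0.42 to 0.80. Among the markers themselves the sow's breed called 1 of 8 epithelial genes, KRT8, which was higher in fetuses of MS sows, and 0 of 6 smooth muscle genes, with 0 at an unadjusted p under 0.05. In the other lists it called KDR, an endothelial receptor (-0.51, adjusted p = 0.00587 in limma), CD163 of macrophages (0.48, adjusted p = 0.00898), S100B of glia (0.44, adjusted p = 0.00036) and UCHL1 of neurons (-0.32, adjusted p = 0.0329), and 0 of 6 stromal genes, with 1 at an unadjusted p under 0.05. The median sow difference of the epithelial list was 0.15 and that of the smooth muscle list -0.09. The part of the markers in the sow difference of IVD was not tested beyond the values without the 5 fetuses.

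**Figure D4:**
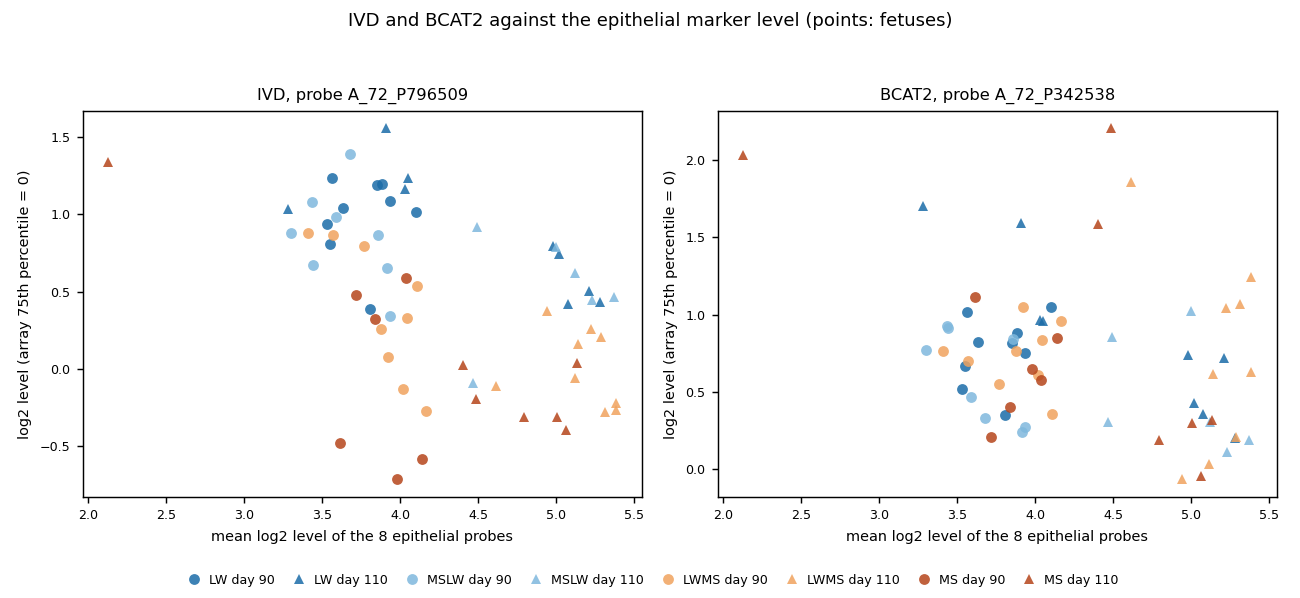
Log2 level of IVD and BCAT2 (y axes, array 75th percentile set to 0) against the mean log2 level of 8 epithelial probes (x axis), with 1 point for each of 63 fetuses, coloured by genotype and shaped by day. The day 110 fetuses under 4.1 on the x axis are MS 632 and 4 LW fetuses, all of them above 1 for IVD. The groups were not compared at matched epithelial levels.

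The probes that followed A_72_P796509 most closely over the 63 arrays, each array being 1 point, were those of PEX14 (r = 0.836), OGT (0.816), PRPF39 (0.808), MTMR1 (0.807) and LPIN1 (0.801). PEX14 is a peroxisomal import protein and LPIN1 a phosphatidate phosphatase. Because these probes were chosen for following IVD over arrays that include both breeds of sow, a sow difference in its direction comes with the choice. It was -0.35 for PEX14 and -0.63 for LPIN1 and is not tested here.

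DBT showed a breed difference on 1 of its 2 probes only. The probes A_72_P648259 and A_72_P510905 lie next to each other on the same cDNA with an overlap of 6 bases, yet correlated at only 0.508 over the arrays. On the dimmer probe, A_72_P510905, the lowest, median and highest levels at day 90 were -1.71, -1.39 and -1.02 in LW, -1.87, -1.60 and -1.27 in LWMS, -2.17, -1.69 and -1.52 in MSLW, and -2.69, -2.30 and -1.89 in MS. At day 110 they were -1.69, -1.11 and -0.72 in LW, -1.76, -1.32 and -0.83 in LWMS, -2.08, -1.79 and -1.54 in MSLW, and -2.28, -1.79 and -1.46 in MS. At day 90 the LW and MS fetuses did not overlap, and the crossbred groups lay between them.

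**Figure D5:**
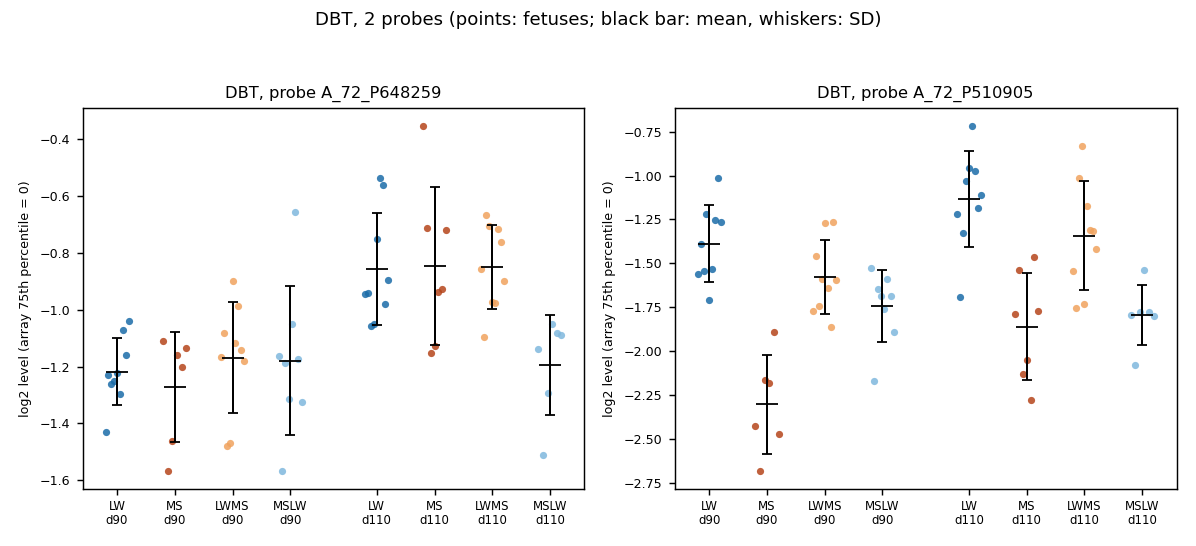
Log2 level of the 2 DBT probes (y axis, array 75th percentile set to 0) in the 8 groups (x axis, genotype and day of gestation). Points are fetuses, bars are means and whiskers are SD. On A_72_P510905 the mean at day 90 is -1.39 in LW and -2.30 in MS, while on A_72_P648259 the means are -1.22 and -1.27.

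On this probe MS was lower than LW by 0.92 ± 0.14 at day 90, at 0.53-fold (adjusted p = 2.08e-06 in limma), and by 0.73 ± 0.13 at day 110, at 0.604-fold (adjusted p = 6.47e-05). It was the only member probe called for the sire's breed, being lower in fetuses of MS sires by 0.57 ± 0.07, at 0.676-fold (adjusted p = 4.92e-09). The 27 fetuses of MS sires had a median of -1.79 and the 36 fetuses of LW sires a median of -1.32. The sow's breed gave a smaller difference of -0.26 ± 0.07, at 0.837-fold (adjusted p = 0.00507), which was not called under median centring (-0.16, adjusted p = 0.237) or quantile normalization (-0.20, adjusted p = 0.0972). Sow minus sire was 0.31, with an adjusted p of 0.0702, so the difference between the 2 parents was not called. The neighbouring probe gave -0.10 for the sire (95% confidence interval -0.21 to 0.01, adjusted p = 0.32) and 0.08 for the sow (adjusted p = 0.342). The breed difference of DBT thus rests on 1 stretch of 60 bases.

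At day 110 taken alone, BCKDHB was higher in fetuses of MS sows by 0.42 ± 0.14 (adjusted p = 0.0451 in limma), which with IVD made 2 of 7 genes. Among all probes 9.97% were called, 4.06% higher and 5.91% lower. The BCKDHB call was close to the threshold. It was lost in 18 of 63 fits with 1 fetus left out, and without the 5 fetuses of low epithelial level it was 0.37 (adjusted p = 0.137).

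Some probes are tied to these genes by a description in the file and not by the gene name, and were added with their values known. Whether they measure these genes was not tested. The probe A_72_P056091, described in the file as BCKDK, the kinase of the complex, was higher in fetuses of MS sows by 0.22 ± 0.06 (1.16-fold, adjusted p = 0.00697 in limma) and was higher on 8 of 8 slides. Its age difference was -0.14 (adjusted p = 0.0534), and -0.15 without the 5 fetuses of low epithelial level (adjusted p = 0.0312). The probe A_72_P709942, described as IVD, was lower in MS than in LW at day 90 by 0.65 (adjusted p = 0.0204), with a sow difference of -0.20 (adjusted p = 0.112). At day 110 its means lay close together, at -2.49 in MS and -2.42 in LW. Limma's F test over the groups did not call this probe (adjusted p = 0.0981). The probe A_72_P226822, described as HIBADH, was well above background on 44 of 63 arrays and differed by -0.17 between days (adjusted p = 0.543).

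The probe A_72_P198057, named TC522446 in the scanner files and paired with BCKDHB in a supplementary table of the study, is described apart from the 5 probes named BCKDHB. The study lists BCKDHB as raised at day 110 in MS only, from these same arrays. Because the probe was taken from the study's results, differences with age and between genotypes come with the choice. The tests given for it describe the probe and are no separate support. Its lowest, median and highest levels at day 90 were -4.31, -3.42 and -2.95 in LW, -5.63, -4.04 and -3.47 in MS, -4.60, -3.72 and -2.56 in LWMS, and -3.85, -3.29 and -2.32 in MSLW. At day 110 they were -3.51, -3.08 and -2.86 in LW, -3.18, -2.70 and -2.09 in MS, -3.09, -2.78 and -2.50 in LWMS, and -3.88, -3.34 and -3.06 in MSLW. MS fetuses of the 2 days did not overlap on this probe.

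It rose with age by 1.53 ± 0.25 in MS (2.9-fold, adjusted p = 2.49e-05 in limma) and by 0.92 in LWMS (adjusted p = 0.00121), against 0.31 in LW (adjusted p = 0.411) and -0.12 in MSLW (adjusted p = 0.819). The difference between fetuses of MS and LW sows was -0.60 at day 90 (adjusted p = 0.0151) and 0.53 at day 110 (adjusted p = 0.0306), and the change of 1.13 ± 0.23 between them was called as an interaction (adjusted p = 0.00864). Without the 5 fetuses of low epithelial level the day 110 difference was 0.47 (adjusted p = 0.124). Its correlation with the 5 BCKDHB probes was 0.19 to 0.279 over the 63 arrays. MS was lower than LW at day 90 by 0.82 (adjusted p = 0.0225), a call that was lost without MS fetus 524, 532 or 827. Without fetus 532 the difference was -0.54 (adjusted p = 0.194).

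Of the other enzymes of the pathway, a list of 16 genes that all had a tested probe, 1 rose and 3 fell with age, and the median of the list was 0.04. In that comparison 39.4% of all probes were called, 17.5% higher and 22% lower, so the count is no sign of a particular age change in the list. AUH, the hydratase that follows methylcrotonyl-CoA carboxylase, rose by 0.50 (adjusted p = 0.00189 in limma). PPM1K, the phosphatase that switches the dehydrogenase complex on, fell by 1.02 ± 0.13 (adjusted p = 4.12e-09). It changed by -1.499 in MS (adjusted p = 0.000245) and by -1.405 in LWMS (adjusted p = 1.37e-05). The changes of -0.70 in MSLW (adjusted p = 0.0838) and -0.47 in LW (adjusted p = 0.23) did not pass the test. ACAT1, a mitochondrial thiolase of the isoleucine branch, fell by 0.53 (adjusted p = 1.2e-07), and MCEE, the epimerase that handles methylmalonyl-CoA, fell by 0.32 (adjusted p = 0.0314). The other 12 did not pass the test.

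By the sow's breed 4 of the 16 were higher in fetuses of MS sows and 0 were lower, the direction opposite to that of IVD. Among all probes 7.26% were called higher and 8.71% lower. These were ECHS1, an enoyl-CoA hydratase (0.46, adjusted p = 0.00729 in limma), ACADSB, the acyl-CoA dehydrogenase of isoleucine (0.45, adjusted p = 0.0239), MCEE (0.36, adjusted p = 0.0333) and ACAT1 (0.25, adjusted p = 0.0185). The median of the list was 0.16, against 0.02 for all probes. The sire's breed called 0 of the 16 in limma, and 1 of them at an unadjusted p under 0.05, while 6.95% of all probes were called.

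Of 8 carriers of large neutral amino acids listed, 4 had a tested probe. SLC43A2 rose with age by 1.02 (adjusted p = 1.83e-05 in limma) and SLC7A8 fell by 0.68 (adjusted p = 0.000666). SLC3A2, the heavy chain that brings such carriers to the membrane, was higher in fetuses of MS sows by 0.53 (adjusted p = 0.0179). It was the only carrier called for the sow's breed, but all 4 were higher there, by 0.39 to 0.53. Their median was 0.43, against 0.02 for all probes. All 4 had an unadjusted p under 0.05 in limma, as had 12119 of 40515 probes. Of all probes, 39.4% were called for age and 16% for the sow.

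The members did not move as 1 group from fetus to fetus. With the group means taken out, BCAT2 and BCKDHA correlated at 0.716 and BCKDHB and HIBADH at 0.67 over the 63 arrays, while the 2 decarboxylase subunits BCKDHA and BCKDHB correlated at -0.09. BCKDHB and DBT, parts of the same complex, correlated at 0.513, and at 0.207 with the group means taken out. IVD and BCKDHB correlated at -0.446, and at -0.479 with the group means taken out.

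Single members correlated with different marker lists. BCKDHB correlated with the mean of 8 mitochondrial genes of other pathways at 0.734, with the epithelial level at 0.578 and with the stromal level at -0.636. HIBADH correlated with the mitochondrial level at 0.266, and at 0.661 with the group means taken out. BCAT2 correlated with the smooth muscle level at 0.688, with the level of the enteric neuron and glia list at 0.66 and with the stromal level at 0.554, and with the group means taken out at 0.747, 0.815 and 0.687. The points of these correlations share the array and its scaling. Of the 8 mitochondrial genes 6 rose with age, with a median change of 0.22, and 1, TFAM, fell by 0.13 (adjusted p = 0.0394 in limma). Among all probes 17.5% rose and 22% fell in that comparison. The part of these transcripts in the rise of BCKDHB was not tested. DBT correlated with the mitochondrial level at 0.148, and at -0.09 with the group means taken out. Without the 5 fetuses of low epithelial level BCKDHB rose by 0.56, DBT by 0.24 and MCCC1 by 0.30, HIBADH fell by 0.31, and all 4 remained called.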

How the data were processed

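The authors deposited the Agilent Feature Extraction 10.10.1.1 output of each one-colour array, with the intensity of each spot before and after background correction, and log2 values of 39446 probes in a matrix, which tracked the scanner values at a correlation of at least 0.989 and had column medians of 8.61, after what the study's methods call quantity normalization. The genome build of the probe design is not given in the sources used here. Middle jejunum RNA had been labelled with Cy3. Each array's 75th percentile was subtracted from the log2 of the corrected intensity. Control spots were left out, outlier spots were set to missing and spots of a probe averaged. A probe was tested if some group had 75% or more of its arrays well above background for it. A mean for each of the 8 groups was fitted by limma 3.58.1 in R 4.3.3, without the sow. P-values are two-sided and adjusted by the Benjamini-Hochberg method over 40515 probes, and called under 0.05 (F test 0.01). Sow and sire differences average the groups of each parent's breed over both days. The number of arrays limits the precision.

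The genes named are the members, each with all its probes, and the listed pathway, carrier, mitochondrial and marker genes that passed the test, besides the 5 genes whose probes correlated best with the brightest IVD probe. The members and lists were chosen with earlier results of these data known. The steps were tested on simulated data. Alternatives were other scalings, background corrections and filters, the slide as a block, array weights, the authors' log2 matrix, other choices of probe, and fetuses left out.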

Additional observations from a re-analysis of the deposited data

Results flagged for a closer look

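In 5 of 88 groups of values 1 fetus lay far from the others of its group, and chance flags about 1 in 20 groups. For IVD on A_72_P796509, LW fetus 484 at day 90 stood at 0.389 with the nearest at 0.808, and MS fetus 632 at day 110 stood at 1.34 with the nearest at 0.0421. On IVD probe A_72_P713413, LW fetus 458 at day 90 stood at -2.82 with the nearest at -2.19. For MCCC1, MSLW fetus 851 at day 110 stood at -2.41 with the nearest at -2.83, and 80.4% of the probes of its array were well above background. On A_72_P198057, MSLW fetus 485 at day 90 stood at -2.32 with the nearest at -3.14.

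The sow difference on A_72_P198057, the probe that the study's table pairs with BCKDHB, was not the same at the 2 days by a test of the interaction, at 1.13 on the log2 scale and an adjusted p of 0.00864 in limma. Over the alternatives the adjusted p ran from 0.0024 to 0.0442. The probe was taken from the study's results on these same arrays, so this interaction is no separate support.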

How the results depend on the processing

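Over 12 alternatives, 138 of 144 values of the 12 member results kept their direction and side of the threshold, 6 lost the call and 0 reversed, and with a changed threshold as a further alternative, 143 of 169 counts of called members stayed within 1.5 times. Requiring an adjusted p of at most 0.01 and a log2 difference of at least 0.5 left 0 genes called for age, 0 in LW, 0 in MS and 1 in LWMS. The share of all probes that meets this stricter rule is not given here, so these counts cannot be set against it. Median centring, which set the median sow difference of all probes at 0.12 in place of 0.02, left 0 called for age in LW and 0 in MS (DBT in LW 0.33, adjusted p = 0.238, HIBADH in LW -0.43, 0.151, DBT in MS 0.55, 0.075). Of all probes, median centring called 2395 for age in LW and 2019 in MS. In MSLW 1 gene, HIBADH, was called in place of 0 under quantile normalization, normexp correction, the filter requiring all arrays of a group, array weights, the authors' matrix, without fetuses 484 and 469, and without the fetuses of low epithelial level. Under these settings between 4230 (normexp correction) and 7528 (array weights) of all probes were called in MSLW. The slide as a block gave 2 genes for age in MS and 2 for the sow, where 2714 and 7797 of 40515 probes were called. Array weights gave 3 in MS, 4 in LWMS, 2 for the sow and 1 for the sire. They raised the probes called for the sow from 6467 to 13193, for the sire from 2816 to 6263, for age in MS from 2958 to 9551 and in LWMS from 7948 to 11845. Without fetuses 484 and 469, 1 gene, DBT, was called in LW, and HIBADH was not (-0.36, adjusted p = 0.0727), while 3522 of 40515 probes were called. Averaging all probes of a gene gave 4 for LWMS, 2 for MS against LW at day 90, 2 at day 110 and 1 for the sire. Of the 28439 gene names tested in this way, 5450, 2135, 3193 and 2139 were called in the same comparisons. Without the fetuses of low epithelial level, 0 were called in LW and 2 in MS, age called 6 genes and the F test 3. Of 40515 probes, 5786 were called there in LW, 3493 in MS, 17574 for age and 12360 by the F test. The cause of these shifts was not tested.

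The alternatives chosen after seeing the data were the sets without low-epithelium fetuses and without the 3 arrays far from the rest in detection, each array left out in turn, the contrasts of LWMS with MSLW over both days and in the age change, and the added probes. Leaving out each of 63 arrays changed 37 of 2268 calls. No paired analysis was possible because the labels used here give no sow or litter, and each fetus number occurs once. Slides hold several groups and were used as a block above.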
